A study of Drosophila melanogaster with 4 samples.

Results

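The regions described here are the 4762 peaks that lie in the unplaced sequence collections U and Uextra of the Drosophila melanogaster genome, of 5954 peaks in the deposited list. A peak belongs to them when the list names its sequence as U (457 peaks) or Uextra (4305 peaks), so their number follows from that choice. For comparison the list held 356 peaks on the X, 225 on 2L, 198 on 3L and 183 on 3R, 962 on these 4 arms together. The other 230 lay on other sequences and are not described here. Peaks mark where DNA immunoprecipitated with Lola, a BTB zinc finger transcription factor, was enriched over input DNA. Per the labels, 2 ChIP libraries and 2 input libraries came from whole 0 to 12 h embryos of the strain lola-RJ-GFP, with a lola-RJ genomic coding region as transgene and the genotype PBac{y[+]-attP-3B}VK00033. The sample titles name the line lola-PJ-GFP, so the labels differ on the isoform. Both groups share these flies, and the labels set them apart by the immunoprecipitation, which used the rabbit polyclonal antibody ab290 against GFP after 15 min in 1.8% formaldehyde. The collection protocol in the labels names y; bw cn sp flies, and the labels do not say whether the native lola gene was intact or whether the replicates were separate embryo collections. Whole embryos mix all cell types, and no library from flies without the tag was used here. Whether a peak depends on the tagged protein can therefore not be told apart from antibody background.

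Lola is known for many isoforms that share the BTB domain and differ in their zinc fingers, and for its part in axon guidance. U and Uextra are not chromosomes. They are collections in which the assembly joined contigs that could not be assigned to an arm, and such contigs are often rich in the satellites and transposons of heterochromatin. A distance along U or Uextra is therefore a distance in the joined sequence and need not exist in a fly. Positions below are 1-based and in release 5. No annotation of U or Uextra and no sequence of that release were used here, so no gene, repeat or base sequence is given for a peak.

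The authors' caller gave every peak its limits and 1 score over the whole series, with no value for a single library. The depth of the libraries is unknown, and no spread between replicates can be measured. The intervals in brackets are exact 95% binomial (Clopper-Pearson) intervals, or intervals of the same level for a median from its ranks, and cover counting error only. For the shares that were tested, the spread over the 4 arms is given beside the value for all peaks. The scores behave as −log10 p-values. Of 53 scores held by at least 15 peaks each, 52 equalled −log10 of a Poisson probability at 1 background mean of 49.15 overlapping fragments, within 0.01. Peaks whose scores lie on this series of steps are said to be at the fixed background. Their pileup, the number of overlapping fragments, is inferred from the score as the nearest step and was not counted from reads. Their fold is this inferred pileup divided by 49.15. The other peaks are read as scored against a higher local input, as the caller does by default. The labels do not state that setting.

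Taken whole, both collections held more peaks per Mb than any of the 4 arms, but the peaks were not evenly spread. With the end of the last peak as the extent, Uextra held 148 peaks per Mb over 29.0 Mb and U held 45.5 per Mb over 10.0 Mb. The arms ranged from 6.63 per Mb on 3R to 15.9 on the X. Peaks covered 5.87% of Uextra, 2.36% of U and between 0.393% and 0.905% of the 4 arms.

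**Figure D1:**
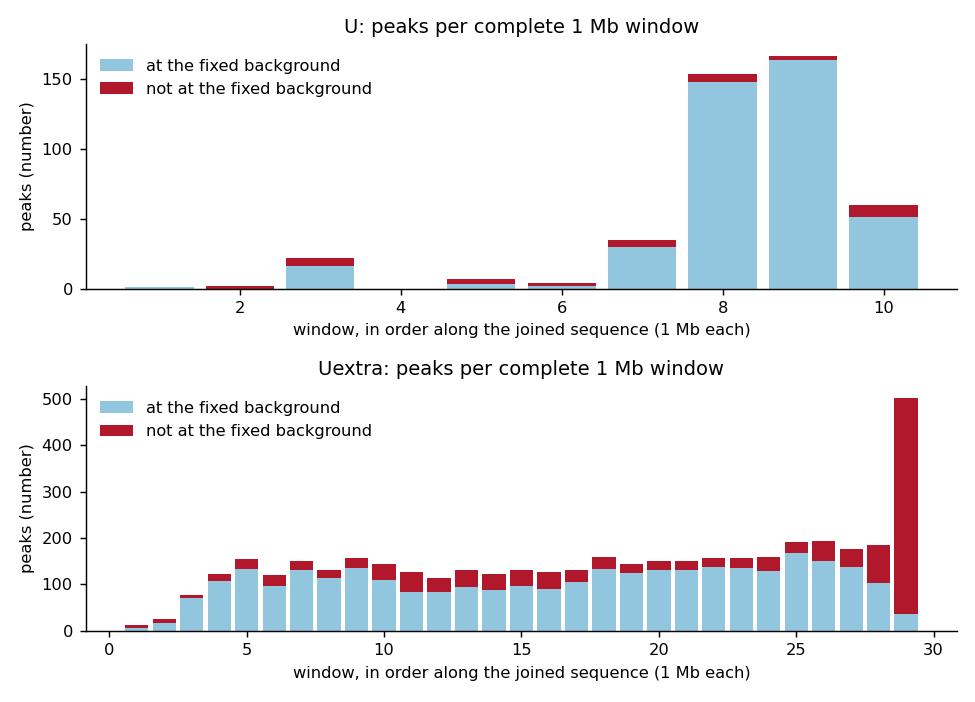
Peaks (number) in each complete 1 Mb window along U (top) and Uextra (bottom), with peaks at the fixed background in light blue and the others in red. On U the windows with 154 and 167 peaks stand out, on Uextra the last window with 502 peaks, of which 37 were at the fixed background.

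On U most peaks lay in a single stretch of 2 Mb. The windows from 7000001 to 9000000 held 321 of the 457 peaks, 70.2%, at 161 peaks per Mb, with 154 in the first of them and 167 in the second. The window after them held 60. The first 6 Mb held 36 peaks, 6 per Mb, and the window from 3000001 to 4000000 held none. In the dense stretch the median score was 15.4 and 1.56% of peaks scored 50 or more. In the first 6 Mb the median was 31.9 and 13 of the 36 peaks scored 50 or more. Peaks at the fixed background made up 97.2% in the dense stretch and 61.1% in the first 6 Mb. These are descriptions of neighbouring peaks on 1 sequence and were not tested.

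On Uextra the density was low at the start and highest at the end. The first 2 Mb held 37 peaks. The 26 windows of 1 Mb from 2000001 to 28000000 held 145 ± 26.0 peaks each (mean ± SD over windows), from 77 to 193. The window from 28000001 to 29000000 held 502 peaks, 11.7% of all peaks on Uextra. The next densest were those from 25000001 with 193 peaks and from 24000001 with 192. The last peak of the list on Uextra ended at 29004745.

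The end of Uextra carried a run of 335 peaks in which no gap reached 5 kb. It reached from 28567943 to 29004745, a length of 437 kb, and peaks covered 37.5% of it. The next longest such run on Uextra held 20 peaks and lay just before it, from 28530873 to 28562919. The median score in the end run was 64.8 (95% interval 61.9 to 66.7) and the lowest was 13.95, while the median over the rest of Uextra was 16.2 (15.9 to 16.6). Of its 335 peaks, 10 were at the fixed background, 2.99% (1.44 to 5.42%), against 77.3% (75.9 to 78.6%) before it. A series of steps moved midway between the real ones matched 3.88% of the end run, so the 10 matches are no more than such a displaced series gave. The end run was picked from the peak positions, and its scores are given as a description.

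The change towards the end was gradual in kind and in number. Between 27000001 and 28000000, 37.3% of peaks scored 50 or more and 56.2% were at the fixed background. From 28000001 to 28500000, 70.2% scored 50 or more, 17.0% were at the fixed background and the density was 282 peaks per Mb. From 28500001 to the last peak these values were 69.8%, 3.54% and 727 per Mb. The share of high scores therefore reached its level before the density did.

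**Figure D2:**
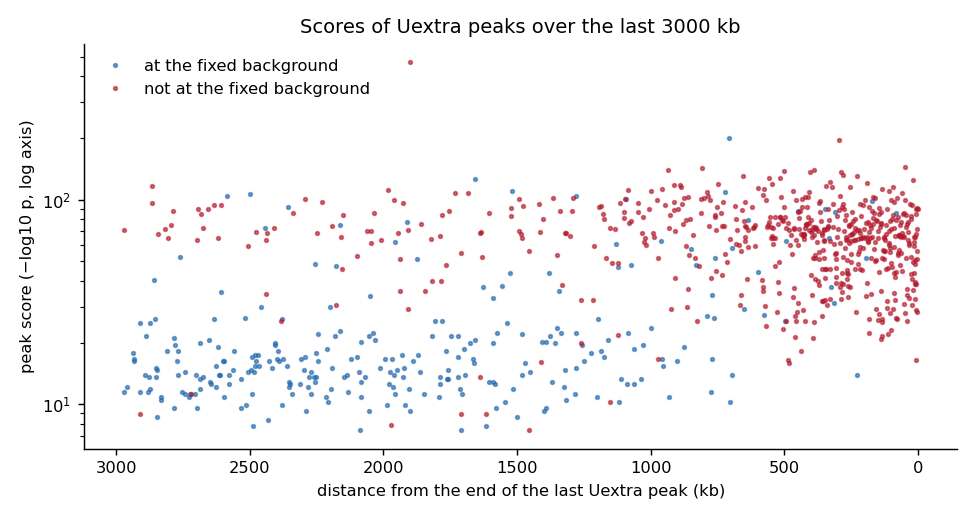
Score of each Uextra peak (−log10 p, log axis) against the distance from the end of the last peak (kb), blue for peaks at the fixed background and red for the others. The low blue band, present 3000 kb from the end, thins out, and the red band fills in; the end run covers the last 437 kb, with a median score of 64.8.

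The most regular feature of Uextra was the spacing of its peaks. Distances between the centres of neighbouring peaks did not spread evenly but fell into bands at whole multiples of a unit length, and that unit shrank along the sequence. The unit was taken in stretches of 2 Mb as the length, from 600 to 1500 bp, with the highest mean cosine of the distances under 4 kb, a measure that is 1 when all distances are exact multiples. It was 985 bp between 4000001 and 6000000, 885 bp between 8000001 and 10000000, 810 bp between 14000001 and 16000000, 785 bp between 18000001 and 20000000, and 690 bp between 26000001 and 28000000. Over the 12 stretches of 2 Mb from 4000001 on, each unit was shorter than the one before.

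Over these 12 stretches together, 376 of 1606 distances lay within 0.25 units of 1 unit, 65 around 1.5 units and 320 around 2 units. How clear the bands were varied. The mean cosine over these 12 stretches ranged from 0.37 to 0.69, with a median of 0.51. Between 18000001 and 20000000, where it was highest, 37 distances lay around 1 unit, 2 lay around 1.5 units and 23 around 2 units. Between 4000001 and 6000000 the bands were weaker, with 20, 9 and 20 distances around 1, 1.5 and 2 units. The same search gave 0.067 over 238 distances on U, 0.057 over 332 in the end run and 0.136 over 110 on the X. Over the 4 arms without a tandem stretch of peaks on 2L it gave 0.079 over 211 distances. U, the X and the pooled arms were each searched whole with 1 unit, not in stretches of 2 Mb. A unit that changed along them would be missed, so these values do not show that they lack such bands. Units under 600 bp were not searched, so the value for the end run does not show a lack of bands there either. The search takes the best length, so it returns a value above 0 in any set, and more so in a small one. The first stretch, from 2000001 to 4000000, gave 0.097. The bands were found by looking at these distances, and no test was made of them.

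**Figure D3:**
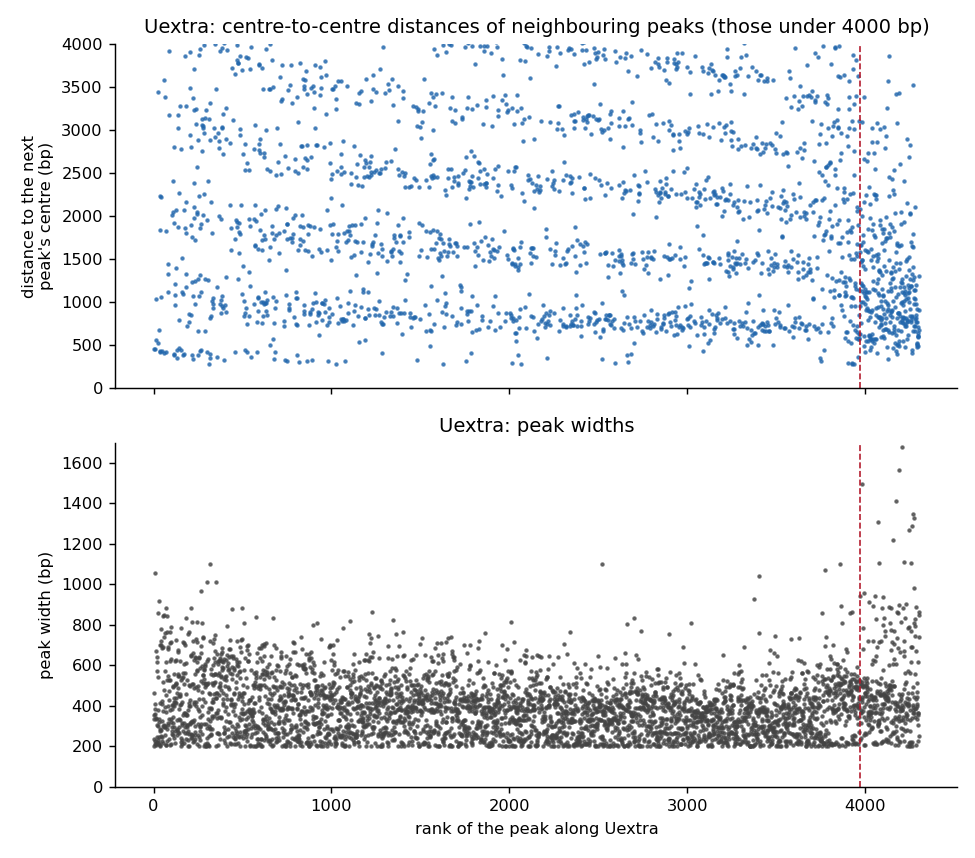
Distance from each Uextra peak's centre to the next (bp, top, those under 4000 bp) and peak width (bp, bottom) against the rank of the peak along Uextra; the dashed line marks the start of the 335-peak end run. The distances form bands at multiples of a unit that falls from 985 to 690 bp. In the end run no unit from 600 to 1500 bp gave clear bands, and shorter units were not searched.

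Wide peaks became rarer along Uextra, while the widest peak of a stretch did not fall with the unit. It was 738 bp between 14000001 and 16000000 but 1102 bp between 20000001 and 22000000 and 1072 bp between 26000001 and 28000000. Of the 12 stretches, none had more than 1.93% of its peaks wider than its own unit. In the first of 4 equal parts of Uextra, 35.5% of peaks were wider than 500 bp. This share was 21.3% in the second part, 12.6% in the third and 16.3% in the fourth, which holds the end run. Among peaks at the fixed background it was 36.9%, 16.5%, 8.11% and 4.86%. On the 4 arms, with the tandem stretch on 2L left out, none of the 16 parts was below 25.0% and none above 46.3%. Contig boundaries were not in the files, so whether the unit or the widths follow contig lengths was not tested.

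As a whole, Uextra held a smaller share of wide peaks than U or the arms. Of all peaks in the list 25.3% were wider than 500 bp. The share was 19.6% on Uextra (18.4 to 20.8%), 39.4% on U (34.9 to 44.0%) and 42.0% on the 4 arms (38.9 to 45.2%). Uextra lay below each of the 4 arms, whose shares ran from 34.3% on 3L to 54.2% on 2L. The first of its 4 equal parts, with 35.5%, lay inside that range. The difference of Uextra as a whole from the arms was -22.4 percentage points (adjusted p = 4.2e-44, Fisher's exact test, two-sided, Benjamini-Hochberg over 12 comparisons). With a limit of 400 bp it was -10.4 points (adjusted p = 1.35e-08, Fisher's exact test). U exceeded Uextra by 19.8 points (adjusted p = 1.53e-19, Fisher's exact test). U differed from the arms by -2.61 points, which did not pass (adjusted p = 0.389, Fisher's exact test), and lay within their range. It passed at -21.2 points for scores at or above the list median (adjusted p = 8.84e-08, Fisher's exact test) and at -7.97 points with a limit of 800 bp (adjusted p = 0.000547, Fisher's exact test). It turned to 6.03, 2.68 and 0.47 points, without passing, after merging gaps under 500 bp, with 1 peak per run of gaps under 5 kb and without the tandem stretch. The test counts peaks as independent, and neighbouring peaks are not, so these p-values and those below are too small.

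The median width was 378 bp on Uextra (373 to 383) and 411 bp on U (388 to 446). On the arms it ran from 347.5 bp on 3L to 541 bp on 2L, or 413 bp on 2L without the tandem stretch. The lowest width on each of these sequences was 201 bp. The upper ends differed more than the medians. The widest 10% began at 582 bp on Uextra, 912 bp on U and 1265 bp on the arms. The widest peak on Uextra, at 28896412 to 28898090, measured 1679 bp. It was followed by 1567 bp at 28874660 to 28876226 and 1497 bp at 28581812 to 28583308, all 3 in the end run. Before the end run the widest was 1102 bp. On U the widest peak, 3345 bp at 6528666 to 6532010, was followed by 2469 bp at 7055533 to 7058001 and 1837 bp at 7815653 to 7817489. These 3 were at the fixed background, with folds of 3.26, 2.73 and 3.44.

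Gaps, measured between the facing edges of neighbouring peaks, were short on both collections. The median gap was 3621 bp on Uextra and 2923 bp on U. On the arms it ran from 6862 bp on 2L to 76368 bp on 3R. Over the list 33.9% of gaps were under 2 kb. On U the share was 44.3% (39.7 to 49.0%), on Uextra 34.4% (33.0 to 35.9%) and on the arms 29.9% (27.0 to 32.9%). Among peaks scoring at or above the list median, U exceeded the arms by 2.82 points and did not pass (adjusted p = 0.448, Fisher's exact test), while over all peaks it exceeded them by 14.4 points (adjusted p = 2.23e-07, Fisher's exact test) and Uextra by 9.87 points (adjusted p = 4.88e-05, Fisher's exact test). Uextra exceeded the arms by 4.58 points (adjusted p = 0.00778, Fisher's exact test). The direction depended on the limit. With 1 kb the difference was -5.42 points (adjusted p = 0.000276, Fisher's exact test) and with 5 kb 26.9 points (adjusted p = 1.19e-50, Fisher's exact test). Without the end run the difference at 2 kb was -0.23 points (adjusted p = 0.906, Fisher's exact test). The end run was picked by its short gaps, so leaving it out lowers the share of Uextra by construction. With the tandem stretch left out of the arms instead, the difference was 11.6 points (adjusted p = 2.05e-11, Fisher's exact test). With both left out the shares were 29.6% on Uextra and 22.8% on the arms. U no longer exceeded Uextra once peaks under 500 bp apart were merged, at -7.37 points (adjusted p = 0.00546, Fisher's exact test). Merging removes the shortest of the gaps that are counted, and leaving out lower scores lengthens gaps. Neither setting is therefore a separate check of this share. The arms spread from 18.7% on 3R to 48.2% on 2L, so both collections lay inside the range of the arms. The 2L share was 15.0% without its tandem stretch, and then both collections lay above all 4 arms. With the end run also left out, Uextra at 29.6% (28.2 to 31.1%) was close to the X at 28.5% (23.8 to 33.5%).

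The short gaps had different shapes. On U, 116 gaps, 25.4%, were between 50 and 300 bp, and 32 were between 300 and 500 bp. On Uextra before the end run the order was the opposite, with 157 gaps, 3.95%, below 300 bp and 240 between 300 and 500 bp. Per 100 bp of gap length that made 62.8 gaps below 300 bp, 120 from 300 to 500 bp, 41 from 500 to 1000 bp and 57.4 from 1000 to 2000 bp. The arms without the tandem stretch had 114 gaps below 300 bp and 24 from 300 to 500 bp. These gaps are the same distances as those of the centres above, taken between peak edges.

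**Figure D4:**
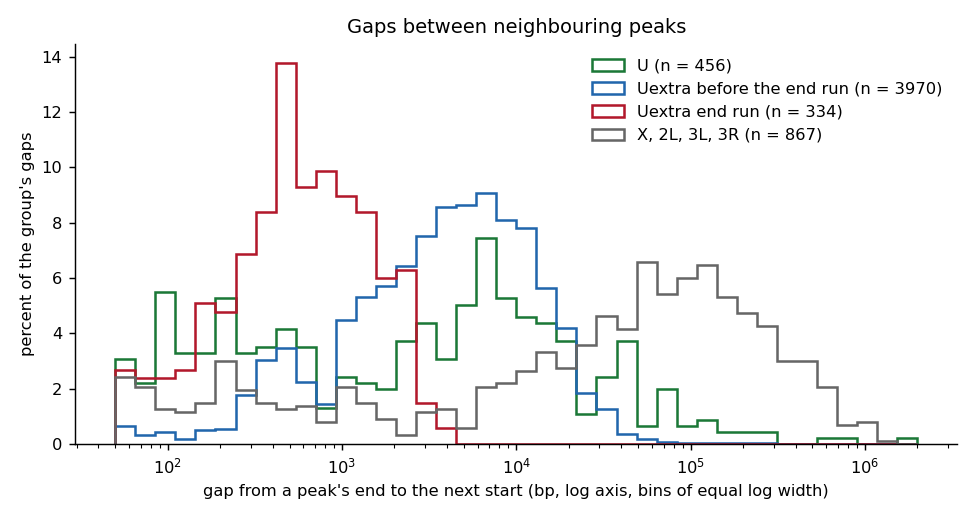
Distribution of the gap between the facing edges of neighbouring peaks (bp, log axis), as percent of each group's gaps, for U, Uextra before its end run, the end run, and the arms without the tandem stretch on 2L. Uextra has a separate hump from 300 to 500 bp before its main one, and the end run has a median gap of 551 bp.

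With gaps under 2 kb, local clusters held a larger share of the peaks on U than on Uextra or on the arms without the tandem stretch. A cluster is here a run of 3 or more peaks. U had 46 such runs that held 185 peaks, 40.5% (35.9 to 45.1%). Uextra had 272 runs that held 1180 peaks, 27.4% (26.1 to 28.8%), and 247 runs with 21.4% before the end run. The arms without the tandem stretch had 36 runs that held 13.5% of their peaks (11.3 to 16.0%). The X was then the highest of the 4, with 21.3% in runs. With its tandem stretch 2L held 44.4% (37.8 to 51.2%), more than U. With gaps under 5 kb the shares were 61.3% on U (56.6 to 65.8%) and 61.8% on Uextra (60.3 to 63.2%), so U no longer stood above Uextra. The largest run on U held 12 peaks between 2190681 and 2199439. Peaks covered 78.3% of its 8.76 kb, 11 of the 12 were at the fixed background, and their scores ran from 16.2 to 56.6. It lay outside the dense stretch of U. The next held 8 peaks, from 7646142 to 7652130, and 7 peaks, from 7811935 to 7819755, all at the fixed background. On Uextra the largest runs all lay in the end run, with 37 peaks from 28884136 to 28924339, 32 from 28977329 to 29004745 and 28 from 28804126 to 28839363. Before it no run held more than 8.

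Scores on Uextra fell off with a shallow second rise. In steps of 10, peaks before the end run numbered 543 from 20 to 30, 137 from 30 to 40, 100 from 40 to 50, 98 from 50 to 60, 113 from 60 to 70, 120 from 70 to 80 and 82 from 80 to 90. From 50 on, the 4 arms had 12, 8, 5 and 4 in the same steps, and U had 9, 4, 2 and 5. Low and high scores differed in how their peaks were scored. Of Uextra peaks scoring from 10 to 15, 96.0% were at the fixed background, and of those from 50 to 100, 10.4%. On U 99.3% of peaks from 10 to 15 were at the fixed background, 100% from 20 to 30, and 4 of 21 from 50 to 100. Of the Uextra peaks scoring 50 or more, 52.1% lay from 27000001 to the last peak. The other 390 were scattered over the first 27 Mb, where they made up 10.8% of peaks.

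**Figure D5:**
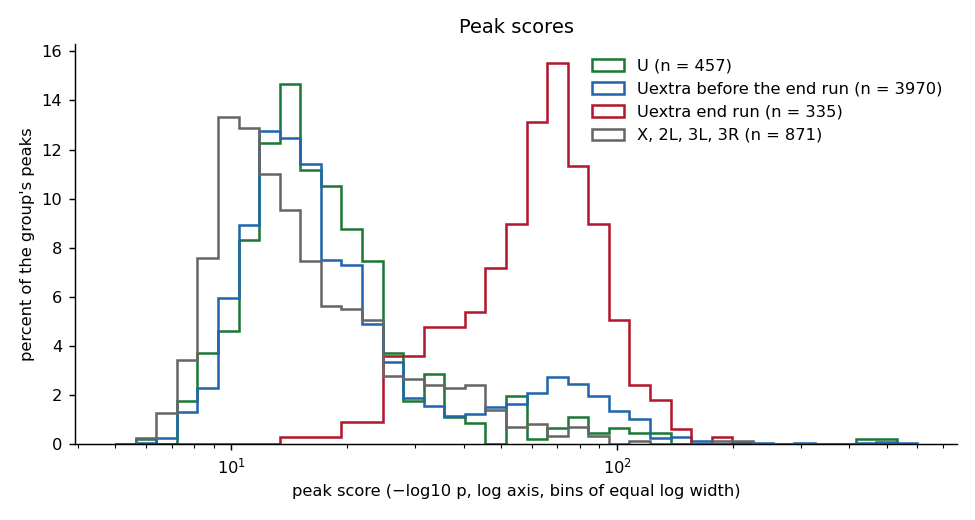
Distribution of peak scores (−log10 p, log axis) as percent of each group's peaks, for U, Uextra before its end run, the end run, and the arms without the tandem stretch on 2L. In these bins, equal on the log axis, Uextra before the end run shows a main hump and a smaller one between 50 and 100, where the end run has its highest values.

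The median score was 17.0 on Uextra (16.6 to 17.4) and 15.8 on U (15.1 to 16.6), and on the arms it ran from 12.9 on 3L to 16.6 on 2L. Over the list 36.2% of peaks scored 20 or more. The share was 39.3% on Uextra (37.8 to 40.8%), 28.9% on U (24.8 to 33.3%) and 28.3% on the arms (25.4 to 31.2%). The arms ran from 22.2% on 3L to 41.3% on 2L with its tandem stretch. Uextra lay above 3 of the 4 and exceeded the arms together by 11.0 points (adjusted p = 1.99e-10, Fisher's exact test). Without the end run, where 99.1% scored 20 or more, it was 5.96 points (adjusted p = 0.000656, Fisher's exact test). U differed from Uextra by -10.4 points (adjusted p = 1.91e-05, Fisher's exact test) and by -5.35 points without the end run (adjusted p = 0.0287, Fisher's exact test). With 1 peak kept per run of gaps under 5 kb the difference between U and Uextra was 0.35 points (adjusted p = 1.0, Fisher's exact test). U differed from the arms by 0.61 points, which did not pass (adjusted p = 0.85, Fisher's exact test), and lay within their range.

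Peaks at the fixed background were most frequent on U. They made up 69.3% of the whole list, 91.5% of U (88.5 to 93.9%), 71.5% of Uextra (70.1 to 72.8%) and 56.7% of the arms (53.5 to 59.8%). U as a whole lay above each of the 4 arms, of which the X was the highest with 85.4% and 2L the lowest with 34.7%. That rank rests on the dense stretch of U, where the share was 97.2%. It was 61.1% in the first 6 Mb, 85.7% from 6000001 to 7000000 and 83.1% from 9000001 on. Uextra lay above 3 of them and below the X. The difference between U and the arms was 34.8 points (adjusted p = 4.2e-44, Fisher's exact test) and that between U and Uextra 20.0 points (adjusted p = 2.06e-23, Fisher's exact test). Uextra exceeded the arms by 14.8 points (adjusted p = 3.79e-18, Fisher's exact test), a difference smaller than the spread among the arms. Among peaks scoring at or above the list median it was 2.63 points and did not pass (adjusted p = 0.418, Fisher's exact test). The median fold of peaks at the fixed background was 2.36 on U, 2.30 on Uextra and 2.22 on the arms.

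On Uextra, peaks not at the fixed background were somewhat more often next to each other over short distances. Most of their neighbours were still at the fixed background. Between 2000001 and 26000000, a peak not at the fixed background was followed within 2 kb by another such peak in 47 of 174 cases, 27.0% (20.6 to 34.3%). A peak at the fixed background was followed by one in 124 of 775 cases, 16.0% (13.5 to 18.8%). From 2 to 10 kb the shares were 20.2% of 297 and 17.7% of 1386, and beyond 10 kb 18.0% of 150 and 19.0% of 615. On U such peaks were too few for the same comparison, with 10 followed by another peak within 2 kb. On the arms without the tandem stretch the shares within 2 kb were 52.4% of 63 and 22.2% of 135. Beyond 10 kb they were 55.0% of 240 and 30.9% of 363, so there the contrast was not limited to short distances. The arms were pooled, and their own shares at the fixed background ran from 37.7% on 3R to 85.4% on the X. Pooling such arms gives a contrast at any distance, so these values do not show whether the arms share the short-range contrast of Uextra.

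The highest scores of the list were outside the end run. Of all 5954 peaks, 11 scored 300 or more, 9 on Uextra and 2 on U. None was on the 4 arms, where the highest score was 216.23 on the X, and none among the 230 peaks on other sequences. Their widths ran from 496 to 832 bp with a median of 621 bp, and 7 of them were at the fixed background. Of the 9 on Uextra, 7 were among its widest 10%. The highest, 560.36 at 23790145 to 23790951 of Uextra, had an inferred pileup of 728 fragments, 14.8-fold over the background. It lay 6236 bp after the peak before it and 4646 bp before the next. The second, 532.41 at 13798611 to 13799250, stood at 14.3-fold and began 126 bp after its neighbour. The next at the fixed background, 495.71 at 2831270 to 2831901 and 487.77 at 6118256 to 6118876, stood at 13.7-fold and 13.5-fold. Lower came 317.72 at 5223930 to 5224539, at 10.3-fold. The highest fold on the arms was 8.18, on the X. Among the 8 highest on Uextra, 3 were not at the fixed background, with scores of 501.88 at 22939306 to 22939844, 468.17 at 27103581 to 27104202 and 466.68 at 21748079 to 21748910.

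On U the 2 highest peaks stood far above the rest. The first, 527.28 at 2605804 to 2606341, was not at the fixed background and was 311880 bp after its neighbour and 84440 bp before the next. The second, 443.01 at 9538394 to 9538977, had an inferred pileup of 625 fragments, 12.7-fold. The next scored 135.44 at 2293442 to 2293923 (6.27-fold), and then 122.84 at 7316074 to 7316449, 119.93 at 4930122 to 4930520 and 115.48 at 9934541 to 9935035, none of these last 3 at the fixed background. The seventh and eighth scored 105.38 at 2148953 to 2150382 (5.47-fold) and 101.45 at 4621101 to 4622030. Of these 8, only the fourth lay in the dense stretch from 7000001 to 9000000.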

How the data were processed

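Chromatin immunoprecipitation and sequencing was done on 2 ChIP and 2 input libraries, and 1 list of peaks stands for the whole series. Per the file headers, MACS made the peaks and positions follow FlyBase release 5. BWA, MACS2, CASAVA (versions 1.7.0.2, 1.7.0.3) and the build BDGP5 appear in the submitters' processing notes without a role. The calling threshold, how replicates were pooled and how multi-mapping reads were handled is not given in the sources used here. Deposited with each peak, the score has no stated unit and is read as a −log10 p-value from its values. Starts and ends were used as deposited.

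The background mean was searched from 20 to 120 in steps of 0.05. Peaks were grouped by sequence name. Shares were compared by Fisher's exact test with Benjamini-Hochberg adjustment over 12 comparisons (threshold 0.05), with limits of 500 bp, 2 kb, a score of 20 and a tolerance of 0.01. The tandem stretch on 2L is the longest run of its peaks with gaps under 15 kb. The peaks named are, on each collection, the 8 highest-scoring, the 3 widest, the 3 largest runs and the densest windows; the end run of Uextra, the 2 Mb stretch of U and the spacing units were chosen after their values were seen. Members, limits and lists were chosen with earlier results of these data known. The statistics were run on simulated data with peaks drawn independently, so that check does not cover the clustering of real peaks. Python 3.11.15 with numpy 2.4.6, pandas 2.3.3, scipy 1.17.1 and matplotlib 3.10.9 was used. No sequence was printed, since no release 5 genome was used here.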

Additional observations from a re-analysis of the deposited data

How the results depend on the processing

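No paired analysis was possible because the list joins all libraries and gives none of them a value of its own, which also prevents leaving out a replicate. Of 73 alternatives to the 12 share comparisons, 53 kept direction and side of the threshold, 5 lost the call, 5 gained one and 10 reversed. The cause was not tested for any of them. The leaving out of the end run and the spacing alternatives were chosen after the data were seen. Differences are in percentage points with adjusted p from Fisher's exact test.

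Between U and the arms, the share wider than 500 bp reversed to 6.03 with gaps under 500 bp merged, to 2.68 with 1 peak per run of gaps under 5 kb and to 0.47 without the tandem stretch, never passing (adjusted p from 0.0939 to 0.906, Fisher's exact test), and passed at -21.2 for scores at or above the list median and at -7.97 with a limit of 800 bp. Between U and Uextra, gaps under 2 kb reversed to -4.67 for scores at or above the median, to -7.37 after merging and to -0.66 with a limit of 5 kb. Between U and the arms they stood at 2.82, without a call, for scores at or above the median. Between Uextra and the arms they reversed to -0.23 without the end run, without a call. With a limit of 1 kb they reversed to -5.42 and passed (adjusted p = 0.000276, Fisher's exact test). Merging removes short gaps, the score filter removes neighbours, and the end run was picked by its short gaps. These settings therefore act on the gaps they measure. Scores of 20 or more reversed between U and the arms to -12.1 among scores at or above the median. They passed there at 18.7 with 1 peak per run, at 12.9 with a limit of 15 and at 2.81 with a limit of 50. Between U and Uextra they reversed to 0.35 with 1 peak per run and lost the call at -3.13 after merging and -3.86 with a limit of 15. Between Uextra and the arms they stood at 0.15, without a call, for scores at or above the median. That choice selects on the score it measures, so 0.15 and -12.1 say little. The share at the fixed background of Uextra against the arms lost its call there at 2.63. The lower share of wide peaks on Uextra, against the arms and against U, kept its calls in all alternatives run. So did the high share of U at the fixed background, but no alternative left out the dense stretch of U. The share of gaps under 2 kb has no value with 1 peak per run of gaps under 5 kb.

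Peak numbers were 224 on U and 2376 on Uextra for scores at or above the median, and 189 and 1747 with 1 peak per run. For scores at or above the median, with merging and with 1 peak per run, the median width on U was 573, 655 and 495 bp and on Uextra 428, 397 and 402 bp. The median gap on U was 9684, 7182 and 17149 bp and on Uextra 6333, 4521 and 13185 bp. The median score on U was 21.5, 17.8 and 20.2. On Uextra it was 27.3 for scores at or above the median and 19.8 with 1 peak per run. Without the end run, Uextra had a median gap of 4177 bp and a median score of 16.2. Runs on Uextra numbered 120 with a limit of 1 kb and 532 with 5 kb. The densest window over the mean window, 3.69 on U and 3.39 on Uextra, was 5.27 and 4.87 in windows of 500 kb, and 6.06 on Uextra for scores at or above the median. The spacing unit fell from between 975 and 1000 bp to between 680 and 705 bp in all 5 alternatives, with a median mean cosine from 0.42 start to start to 0.63 at the fixed background only. Read numbers are unknown, so the lack of a peak does not show a lack of binding.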
